A study of Mus musculus with 36 samples.

Results

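The vomeronasal receptor genes are those whose symbol starts with Vmn1r or Vmn2r. They were taken from the protein-coding genes on autosomes of the mouse mm9 genome, which gave 327 members of 21418 genes in all. Of the members, 203 were Vmn1r and 124 were Vmn2r. Genes were included by symbol, though the family was picked with earlier results of these data known. Each gene was given the replication timing (RT) state of the domain that covered its start.

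The assay was Repli-seq: cycling cells take up the base analogue BrdU, are sorted into early and late S phase, and the labelled DNA of each fraction is sequenced. The series held 36 libraries in 7 groups of mouse B cells. Domain maps of 2 of these groups were used, each built from 4 libraries (2 per S phase fraction). For CH12 the methods state that sequencing replicates came from separately thawed vials, and they also call the paired sorts of a fraction technical replicates. CH12 shLacZ cells are a B cell lymphoma line (clone F3) without the *Rif1* deletion used in other groups, infected with a control shRNA vector and selected with puromycin, and priB WT cells are primary B cells of *Rif1*+/+ mice. The labels give stimulation with IL4, CD40 and TGF beta for the cultures, in wording written for CH12 cells and repeated for the primary cells. A further map carries the name MEF WT, for mouse embryonic fibroblasts. The labels tie it to no sample, so it is given as a description. Each map is 1 merged map of domains, called in 20 kb bins and termed early (E), middle (M) or late (L). No replicate error can therefore be given, no difference between maps was tested, and the read depth is unknown. Wilson 95% intervals cover counting over genes only, and neighbouring genes share a domain and are not independent.

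Vomeronasal receptors are G protein-coupled receptors of the sensory neurons of the vomeronasal organ, which detects pheromones and other social odours in rodents. The V1R family, encoded by Vmn1r genes, is used by neurons that signal through Gnai2 and detects mainly small molecules, and its genes have their coding part in a single exon. The V2R family, encoded by Vmn2r genes, is used by neurons that signal through Gnao1, carries a long extracellular domain that binds peptides and proteins, and is encoded in several exons. Both families expanded by local duplication and lie in dense clusters of near-identical copies. Expression of the receptors is largely restricted to the vomeronasal organ.

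The annotation of the members shows this structure. The median coding length was 921 bases for Vmn1r and 2559 bases for Vmn2r. Of the 203 Vmn1r genes, 191 had a single exon in their annotated transcript, whereas the median Vmn2r gene had 6 exons. The median gene spanned 0.93 kb for Vmn1r and 22.8 kb for Vmn2r, so a Vmn1r gene is far shorter than a 20 kb bin and a Vmn2r gene is slightly longer than one. Chromosome 7 held 154 members (103 Vmn1r and 51 Vmn2r) of the 11 autosomes with a member. Joining neighbouring gene starts with gaps of at most 1 Mb gave 27 clusters, of which 18 had 3 or more members and held 315 of the genes. Of these 18, 5 held Vmn1r only, 10 held Vmn2r only and 3 held both. The symbol Vmn1r63 belonged to 2 gene identifiers, and 8 symbols contained ps although the annotation lists those genes as protein-coding.

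How alike the copies are bears on what the maps can measure, since the reads were 50 bases long and only uniquely aligned reads were kept. The first 50 bases from the start codon follow for members of the chromosome 7 clusters, read from the mm9 assembly. For Vmn1r95, capitals mark the start codon, and in the 5 genes below it they mark bases that differ from Vmn1r95.

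Vmn1r95: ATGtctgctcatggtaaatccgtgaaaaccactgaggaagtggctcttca
Vmn1r107: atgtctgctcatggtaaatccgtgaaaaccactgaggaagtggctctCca
Vmn1r103: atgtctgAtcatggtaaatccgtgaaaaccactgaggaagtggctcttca
Vmn1r91: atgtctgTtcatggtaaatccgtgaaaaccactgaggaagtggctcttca
Vmn1r93: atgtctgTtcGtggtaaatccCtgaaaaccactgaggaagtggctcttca
Vmn1r172: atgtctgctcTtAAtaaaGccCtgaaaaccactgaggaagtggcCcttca

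The Vmn1r95 window lies at chr7:20779059-20779108 on the plus strand and occurred 18 times in the genome. The Vmn1r107 window (chr7:21254267-21254316, plus strand) differed from it at 1 base and occurred 6 times. The windows of Vmn1r103 (chr7:21095834-21095883, minus strand) and Vmn1r91 (chr7:20686507-20686556, plus strand) also differed from it at 1 base each, and occurred 10 and 2 times. Vmn1r93 (chr7:20724388-20724437, minus strand) differed at 3 bases and its window occurred 9 times. Vmn1r172 lies in the same cluster, at chr7:24444711-24444760 on the plus strand. It differed at 6 bases, and its window occurred 3 times. A read from any of these windows has more than 1 equal place to align.

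The same holds for Vmn2r genes further upstream on chromosome 7. For Vmn2r30, capitals mark the start codon, and in the genes below it they mark bases that differ from Vmn2r30.

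Vmn2r30: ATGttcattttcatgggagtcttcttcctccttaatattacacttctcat
Vmn2r37: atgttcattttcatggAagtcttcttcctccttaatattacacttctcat
Vmn2r39: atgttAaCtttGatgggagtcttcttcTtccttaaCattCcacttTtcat

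The Vmn2r30 window (chr7:7290155-7290204, minus strand) occurred 11 times. Vmn2r37 (chr7:8954372-8954421, plus strand) differed at 1 base with 3 occurrences, and Vmn2r39 (chr7:9147159-9147208, plus strand) at 7 bases with 4. Other members were distinct. The only members in E domains of all 3 maps, Vmn1r1 and Vmn2r83, had start windows that occurred a single time in the genome. In both, capitals mark the start codon.

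Vmn1r1: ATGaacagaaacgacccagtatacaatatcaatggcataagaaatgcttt
Vmn2r83: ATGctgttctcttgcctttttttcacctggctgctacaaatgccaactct

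The Vmn1r1 window lies at chr1:184088180-184088229 on the minus strand and the Vmn2r83 window at chr10:78931703-78931752 on the plus strand. Over the 324 members with an annotated start window, 198 windows (61.1%) occurred a single time, and the share was 61.1% for Vmn1r and 61.2% for Vmn2r. Another member had the identical window for 108 genes, which shared 35 windows. Copies with identical windows did not always share a state. Members of 16 of the 35 windows lay in different states in CH12, and this held for 17 windows in priB and 9 in the MEF map. The 16 members that shared the Vmn1r95 window were 5 M and 11 L in CH12, 15 M and 1 L in priB, and 16 M in the MEF map.

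The first question was where the receptor genes lie in the RT program of each cell type. They were mostly late in CH12, divided between middle and late in the other maps, and nearly absent from early domains throughout. In CH12, 251 of the 327 members were L, or 76.8% (Wilson 95% interval 71.9 to 81.0%), against 21.3% of all genes. A further 74 were M (22.6%, against 26.9% of all genes) and 2 were E (0.612%, against 51.8% of all genes). In priB, 155 were L, or 47.4% (42.1 to 52.8%), against 12.6% of all genes. There, 166 were M (50.8%, against 28.2%) and 6 were E (1.83%, against 59.2%). In the MEF map 177 were L, or 54.1% (48.7 to 59.5%), against 11% of all genes. The other MEF states held 148 members in M (45.3%, against 27.9%) and 2 in E (0.612%, against 61.1%).

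These genes fell into far fewer domains than their number. The 327 starts lay in 62 domains of the CH12 map, 60 of the priB map and 51 of the MEF map. The richest L domain in CH12 covered 1080 kb on chromosome 13 and held 28 members, from Vmn1r191 to Vmn1r220. In priB the richest L domain held 26 members, from Vmn2r-ps113 to Vmn1r229, over 2760 kb of chromosome 17. The richest domain of any map was an M domain of the MEF map, which covered 3480 kb on chromosome 7 and held 48 members from Vmn1r91 to Vmn1r165. Members lay nearer to domain edges than the median gene. The median distance from a start to the nearest edge was 171 kb in CH12, 157 kb in priB and 228 kb in the MEF map, against 309, 319 and 408 kb over all genes. Starts within 100 kb of an edge made up 32.7% of members in CH12, 35.8% in priB and 24.5% in the MEF map, against 20%, 18.6% and 15.4% of all genes. The RT values were smoothed over a span of 300 kb before states were called, so edges are placed less sharply than the bins.

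**Figure D1:**
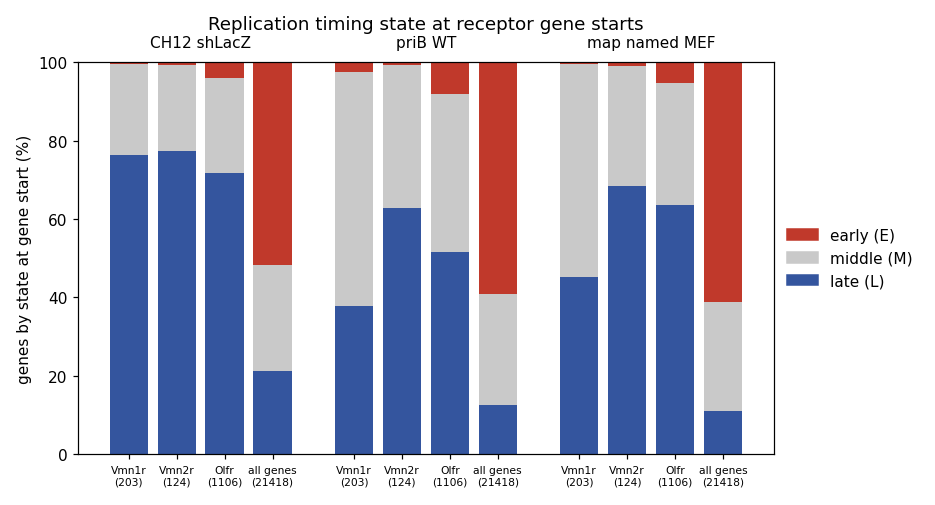
Share of genes (%, y axis) in early (red), middle (grey) and late (blue) domains at the gene start, for Vmn1r, Vmn2r, olfactory receptor (Olfr) and all protein-coding autosomal genes in each of the 3 maps, with the number of genes in brackets. Late domains held 76.4% of Vmn1r and 77.4% of Vmn2r genes in CH12 but 37.9% and 62.9% in priB, and there is no error bar because each map is a single merged one.

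Vmn1r and Vmn2r genes had like shares in CH12 and different ones in the other maps. In CH12, L domains held 155 Vmn1r genes (76.4%) and 96 Vmn2r genes (77.4%). In priB they held 77 Vmn1r genes (37.9%) and 78 Vmn2r genes (62.9%). In the MEF map they held 92 Vmn1r genes (45.3%) and 85 Vmn2r genes (68.5%). M domains took nearly all of the remainder, with 121 Vmn1r and 45 Vmn2r genes in priB and 110 and 38 in the MEF map. Olfactory receptor genes, the larger family of odorant receptors in the main olfactory epithelium, lay between the Vmn1r and Vmn2r shares in priB and the MEF map. Of 1106 Olfr genes, 71.8% were L in CH12, 51.7% in priB and 63.5% in the MEF map.

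The difference between Vmn1r and Vmn2r rests on few clusters. In priB, the 5 clusters with Vmn1r only had 0 to 50% of members in L domains, with a median of 29.7%, and the 10 clusters with Vmn2r only had 0 to 100%, with a median of 60.0%. In the 3 clusters that held both, L domains contained 29 of 49 Vmn1r genes (59.2%) and 30 of 43 Vmn2r genes (69.8%) in priB. The MEF shares in these 3 clusters were 69.4% and 69.8%. Without the Vmn1r91 to Vmn1r183 cluster of chromosome 7, 41.7% of Vmn1r genes were L in priB and 59.0% in the MEF map. On chromosome 7 the priB shares were 44.7% for Vmn1r and 66.7% for Vmn2r, and on the other chromosomes they were 31% and 60.3%.

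Setting the 3 maps together, 131 members (40.1%) were L in every map, against 7.73% of all genes. This combination held 71 Vmn2r genes (57.3% of them) and 60 Vmn1r genes (29.6%). The next most frequent combinations were L in CH12 and M in both others, with 62 members of which 51 were Vmn1r, and M in all maps, with 59 members of which 38 were Vmn1r. L in CH12 and the MEF map but M in priB held 35 members (10.7%, against 1.73% of all genes). L in both B cell maps but M in the MEF map held 23 (7.03%, against 3.91%). There were 10 members that were L in the MEF map alone and M in the others (3.06%, against 1.03% of all genes). Rare combinations were made up of named genes. Vmn1r55, Vmn1r85, Vmn1r86 and Vmn1r87 were E in priB and M in the others (1.22% of members, against 3.21% of all genes). Vmn2r96 was M in CH12 and L in the others (0.306%, against 0.168%).

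The second question was how the state of a receptor gene differed between CH12 and priB. Members that differed were almost all in an earlier state in priB, by a single step. A state is a label, and the maps hold no ratio, so the size of a change in timing is unknown. L took 48.7% of autosomal bins in CH12 and 38.1% in priB, and whether the limits of the states are alike in both maps was not tested. In priB, 101 members (30.9%) were in an earlier state than in CH12, against 18.3% of all genes. Of these, 97 went from L to M and 4 from M to E, and none went from L to E. The reverse held for 1 member (0.306%), Vmn2r96, against 2.8% of all genes later in priB. Fewer members could be later, since few were E or M in CH12. Of the 74 members M in CH12, 1 (1.35%) was L in priB, against 1.85% of all genes M in CH12. A larger share of members than of genes in general could have an earlier state in priB, since more of them were L in CH12. Of the 251 members that were L in CH12, 97 (38.6%) were earlier in priB, against 43.2% of all genes that were L in CH12. In priB, 0% of the former and 2.92% of the latter were E. Of the 74 members M in CH12, 4 (5.41%) were E in priB, against 33.7% of all genes M in CH12. The share earlier in priB was 40.4% for Vmn1r (82 genes) and 15.3% for Vmn2r (19 genes). Among genes that were L in CH12 it was 50.3% for Vmn1r and 19.8% for Vmn2r.

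Distance from domain edges was set beside the change. For members under 100 kb from an edge in either map, 75 of 177 (42.4%) were earlier in priB, and for those farther from edges 26 of 150 (17.3%). Over all genes the shares were 36.2% near edges and 10.4% away from them. The edges and the states come from the same domains, so this split is not independent of the change. Away from edges, 23 of 82 Vmn1r genes (28.0%) and 3 of 68 Vmn2r genes (4.41%) were earlier, and near edges 48.8% and 28.6%. For Vmn1r, 3 clusters held most of the change. The Vmn1r91 to Vmn1r183 cluster had 30 genes earlier in priB, Vmn1r4 to Vmn1r31 had 21 and Vmn1r188 to Vmn1r223 had 12, which is 63 of the 82. These 3 clusters also held 124 of the 203 Vmn1r genes. Inside them, 50.8% of Vmn1r genes were earlier and 32.3% were L in priB. Outside these 3 clusters 19 of 79 Vmn1r genes (24.1%) were earlier and 46.8% were L in priB.

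In the MEF map, 85 members (26.0%) were earlier than in CH12, against 23.4% of all genes, and 11 (3.36%) were later, against 5.87%. By starting state the comparison reads otherwise. Of the 251 members L in CH12, 33.9% were M in the MEF map, against 45.2% of all genes L in CH12. In the MEF map, 0% of the former and 9.92% of the latter were E. Of the 74 members M in CH12, 14.9% were L in the MEF map, against 5.08% of all genes M in CH12. E in the MEF map held 0% of these 74 members, against 43.5% of all genes M in CH12. Compared with priB, 23 members (7.03%) were earlier in the MEF map, against 13.6% of all genes, and 49 (15%) were later, against 10.3%. Of the 166 members M in priB, 27.1% were L in the MEF map, against 9.94% of all genes M in priB. E in the MEF map held 0% of these 166 members, against 31.7% of all genes M in priB. Of the 155 members L in priB, 14.8% were M in the MEF map, against 33.4% of all genes L in priB. The comparisons share maps and are not independent of each other. Of the 49 that were later, 45 went from M to L and 4 from E to M, and 19 of them lay in the Vmn1r4 to Vmn1r31 cluster on chromosome 6.

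**Figure D2:**
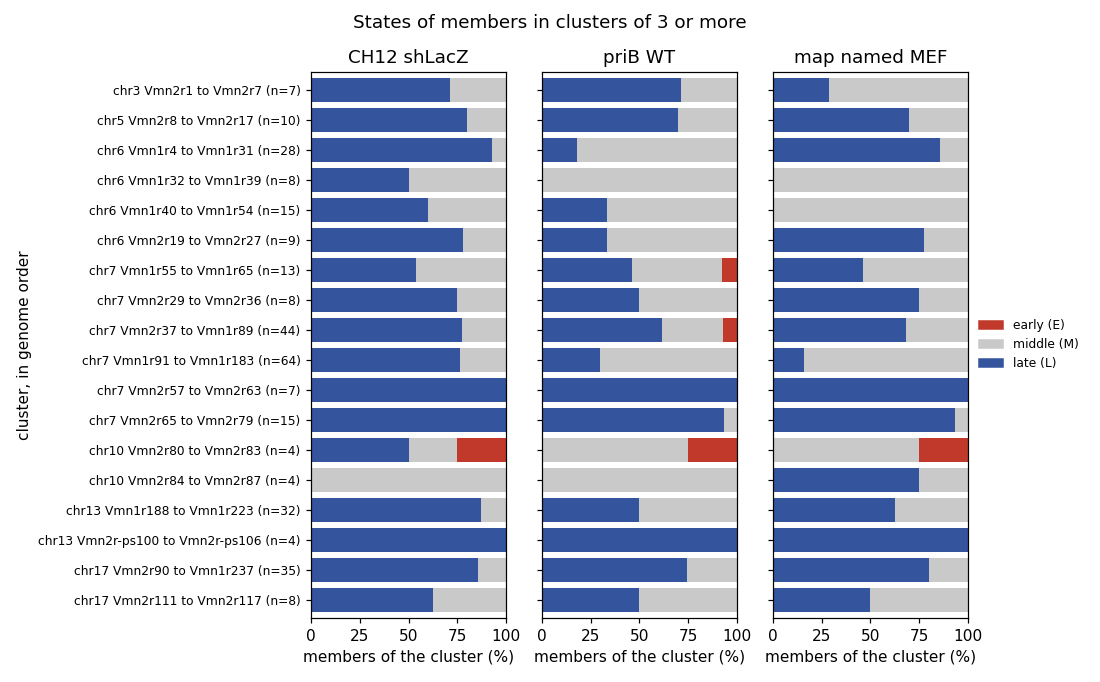
Share of members (%, x axis) in early (red), middle (grey) and late (blue) domains for each of the 18 clusters with 3 or more members, in genome order, in the 3 maps. Late domains held more than 50% of members in 15 clusters in CH12, 7 in priB and 11 in the MEF map.

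Clusters were seldom of a single state. In each of the 3 maps, 14 of the 18 clusters with 3 or more members held more than 1 state. Some of these splits rest on domains under 300 kb, the smoothing span. In CH12, 15 of the 31 M domains with members were that short and held 41.9% of the M members. Such short domains held 6.02% of M members in priB and 5.41% in the MEF map, and 1.59%, 13.5% and 2.82% of L members in the 3 maps. The median share of L members over these clusters was 76.9% in CH12, 50.0% in priB and 69.1% in the MEF map. At least 1 member was earlier in priB than in CH12 in 14 clusters, no member changed in 4, and in no cluster did every member become earlier. The clusters differed in where the change lay, as the following examples show.

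The largest cluster, Vmn1r91 to Vmn1r183 (chr7:20686507-24840710), held 64 Vmn1r genes over 4154 kb. In CH12 it was cut into 9 domains that alternated between M and L, with 49 members in L. For 13 of its genes, no window of read length in the bin of the start occurred a single time in the genome. Of these 13 genes, 11 were M and 2 were L in CH12, and 13 were M in both other maps. The part of repeated sequence in this alternation was not tested. In priB, 19 members were L, in runs from Vmn1r113 to Vmn1r116, from Vmn1r120 to Vmn1r125 and from Vmn1r167 to Vmn1r175. In the MEF map the first 48 genes lay in a single M domain, and L held only the 10 genes from Vmn1r167 to Vmn1r176. E domains flanked the cluster: of the bins within 500 kb outside it, 78.0% were E in CH12, 84.0% in priB and 86.0% in the MEF map, and 0 were L. The L run near its downstream end, from Vmn1r167 to Vmn1r175, was the stretch that all 3 maps had in common.

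The Vmn1r4 to Vmn1r31 cluster (chr6:56906460-58422872, 28 genes) had the most members that differed between CH12 and priB outside chromosome 7, 21 of 28. In CH12, 26 members were L, and Vmn1r20 and Vmn1r21 lay in an M domain of 420 kb between them. In priB, a single M domain of 1580 kb held the 23 genes from Vmn1r4 to Vmn1r26, and only the 5 genes from Vmn1r27 to Vmn1r31 were L. The MEF map had 24 L members, all but Vmn1r4 to Vmn1r7. Vmn1r7 lay 4.73 kb from the edge of its MEF domain, the smallest distance of any member in that map. The edges between M and L thus lay at different genes in the 3 maps.

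The Vmn1r188 to Vmn1r223 cluster (chr13:22179747-23342192, 32 genes) changed at its ends. The 28 genes from Vmn1r191 to Vmn1r220 formed 1 L domain in CH12, which was 1080 kb long. In priB the L domain was 660 kb long and held the 16 genes from Vmn1r195 to Vmn1r212. In the MEF map it was 860 kb long and held the 20 genes from Vmn1r194 to Vmn1r215. The shorter L domains lay within the longer ones.

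Of the other clusters with Vmn1r only, Vmn1r32 to Vmn1r39 (chr6:66502177-66755326) straddled the end of a 7060 kb L domain in CH12. Its genes Vmn1r32 to Vmn1r35 were L and Vmn1r36 to Vmn1r39 were M there, and all 8 were M in the other maps. Vmn1r40 to Vmn1r54 (chr6:89664197-90220047, 15 genes) had 9 L members in CH12, 5 in priB and 0 in the MEF map.

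The Vmn2r37 to Vmn1r89 cluster (chr7:8954257-13805638) held 24 Vmn1r and 20 Vmn2r genes over 4851 kb and was the longest. The same number of Vmn1r genes, 19 of 24, was L in each map, and these lay in a long L domain of 2760 kb in CH12, 2580 kb in priB and 2560 kb in the MEF map. The other 5 Vmn1r genes lie at the downstream end, where Vmn1r85, Vmn1r86 and Vmn1r87 were E in priB, in an E domain 380 kb long, and M in the others. Of the 20 Vmn2r genes, 15 were L in CH12, 8 in priB and 11 in the MEF map. The upstream part, from Vmn2r37 to Vmn2r41, was a single L run in CH12. It was broken into M and L domains of 60 to 1320 kb in priB and of 120 to 1320 kb in the MEF map. In the bins of these gene starts, 1 to 22% of 50-base windows occurred a single time in the genome. In priB, an L domain of 60 kb that is shorter than the smoothing span held only Vmn2r38, whose start lay 0.084 kb from its edge.

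The Vmn2r90 to Vmn1r237 cluster (chr17:17840905-21451873) held 22 Vmn2r and 13 Vmn1r genes. Its Vmn2r genes were L in all but 1 to 3 cases per map, with 20 in CH12, 21 in priB and 19 in the MEF map. Its Vmn1r genes, at the downstream end, were L in 10, 5 and 9 cases. The later member, Vmn2r96 (chr17:18718691-18735121), lay in an M domain of 140 kb between L domains in CH12, which is shorter than the smoothing span. In priB and the MEF map the L domain ran through this gene, over 2760 and 2900 kb. The third cluster with both families, Vmn1r55 to Vmn1r65 (chr7:5097820-5962612, 12 Vmn1r and 1 Vmn2r), had 7 L members in CH12 and 6 in each other map. Its first gene, Vmn1r55, lay in the end of an E domain in priB, 0.897 kb from the edge.

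**Figure D3:**
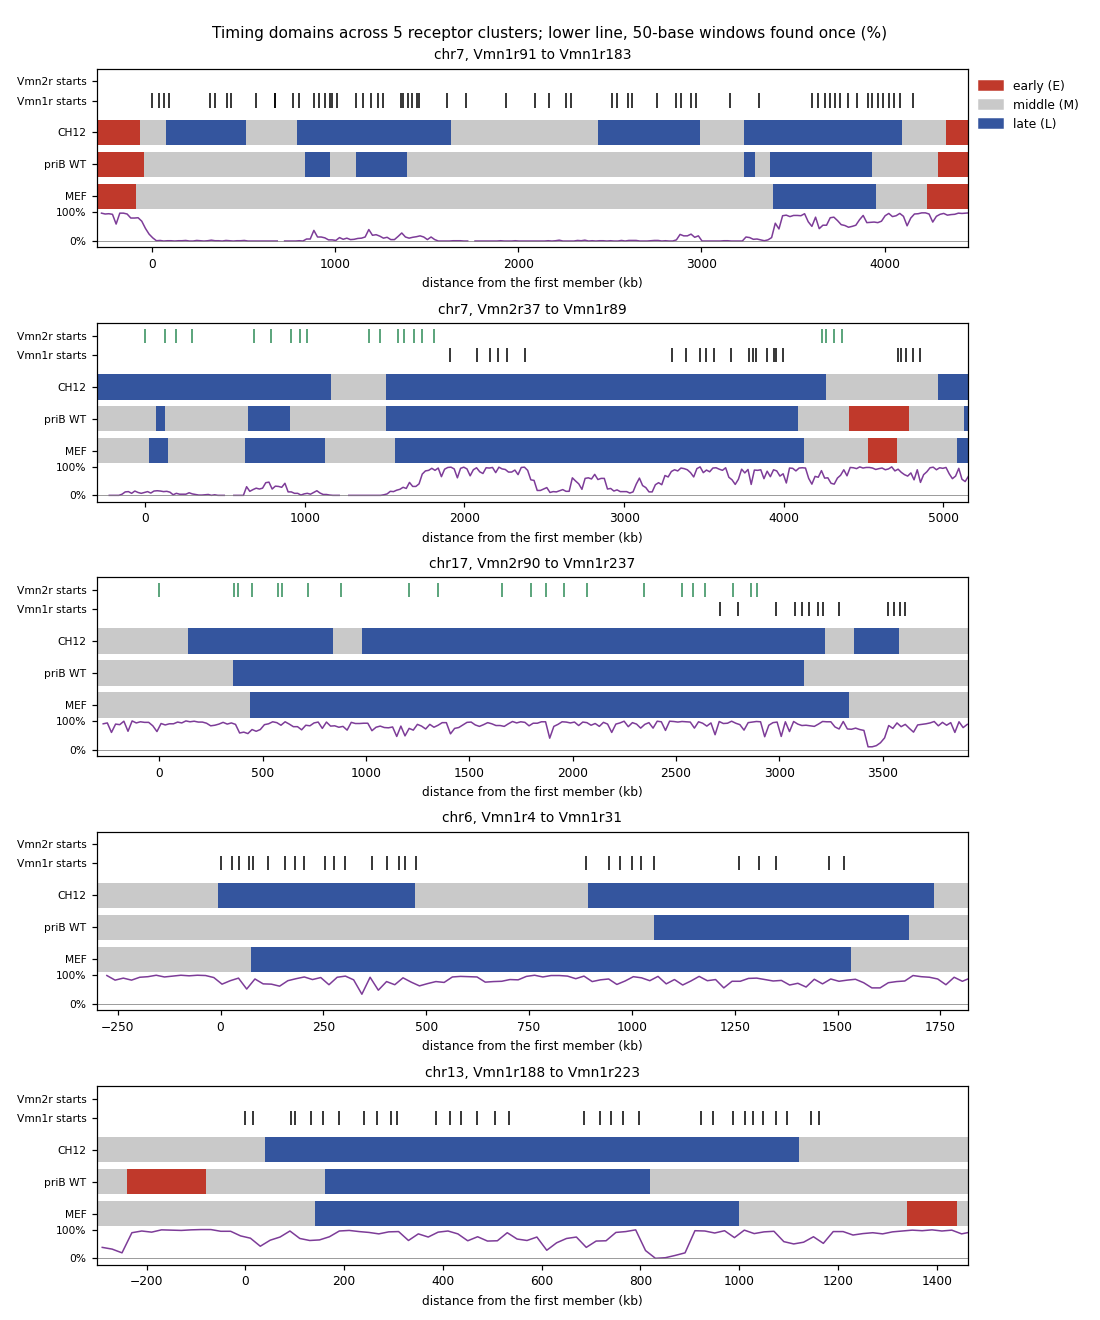
Domains of the 3 maps (red E, grey M, blue L) across the 5 largest clusters, against distance from the first member in kb, with gene starts of Vmn1r (black) and Vmn2r (green) as ticks. The purple line gives the share of 50-base windows in each 20 kb bin that occur once in the genome (0 to 100%) and is near 0 along most of the Vmn1r91 to Vmn1r183 cluster.

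Several Vmn2r clusters kept the late state in every map. All 7 genes from Vmn2r57 to Vmn2r63 (chr7:48655102-50189159) were L in each map, inside L domains of 4020 kb in CH12, 3300 kb in priB and 3940 kb in the MEF map. Vmn2r57 was the member farthest from a domain edge in both B cell maps, at 1660 kb in CH12 and 1540 kb in priB. The 4 genes from Vmn2r-ps100 to Vmn2r-ps106 (chr13:66045463-66787891) were L in every map. So were 14 of the 15 genes from Vmn2r65 to Vmn2r79 (chr7:92088679-94186478). The exception, Vmn2r65, was L in CH12 at 12.5 kb from an edge and M in the others.

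Other Vmn2r clusters changed at their edges. Vmn2r8 to Vmn2r17 (chr5:109226212-109882406, 10 genes) differed only at Vmn2r10, which was L in CH12 and M in the others. Vmn2r111 to Vmn2r117 (chr17:22684908-23616564, 8 genes) had 5 L members in CH12 and 4 in each other map. Its gene Vmn2r115 lay 0.943 kb from an edge in CH12, the smallest distance in that map. Vmn2r29 to Vmn2r36 (chr7:7184038-7855173, 8 genes) had 6 L members in CH12 and the MEF map and 4 in priB. Vmn2r19 to Vmn2r27 (chr6:123258351-124181802, 9 genes) had 7 L members in CH12 and the MEF map and 3 in priB. On chromosome 3, Vmn2r1 to Vmn2r7 (chr3:63885564-64648687) had the same states in both B cell maps, with 5 of 7 genes L, and 2 L genes in the MEF map.

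A pair of small clusters on chromosome 10 stood apart from these. Vmn2r80 to Vmn2r83 (chr10:78611542-78954899) ran from L to E over 4 genes in CH12, with Vmn2r80 and Vmn2r81 in L, Vmn2r82 in M and Vmn2r83 in an E domain of 2360 kb. Vmn2r83 lay 11.7 kb inside this E domain in both B cell maps and 71.7 kb inside it in the MEF map. Vmn2r84 to Vmn2r87 (chr10:129822372-129934435), at the end of the chromosome, was all M in both B cell maps and had 3 L genes in the MEF map.

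The 12 members outside clusters of 3 or more were in mixed states. Vmn1r1 (chr1:184087275-184088450) was E in every map, in domains of 780 kb in CH12, 720 kb in priB and 5840 kb in the MEF map, and 352, 332 and 2870 kb from their edges. It was the only member more than 100 kb inside an E domain in any map. Vmn1r90 on chromosome 7 was L in every map, and Vmn2r18 on chromosome 5 and Vmn2r88 and Vmn2r89 on chromosome 14 were M in every map. Vmn1r2 and Vmn1r3 on chromosome 4 and Vmn2r120 on chromosome 17 were M in both B cell maps and L in the MEF map. Vmn1r184 and Vmn1r185 on chromosome 7 were L in both B cell maps and M in the MEF map. Vmn2r118 on chromosome 17 was L in CH12 and M in the others, and Vmn1r238 on chromosome 18 was M in priB and L in the others.

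L bins made up a larger share inside the clusters than beside them. Inside the 18 clusters, from the first to the last member, 79.2% of 1306 bins were L in CH12, against 33.7% of the 878 bins within 500 kb on either side. The shares were 57.7% inside and 17.2% outside in priB, and 62.5% and 18.8% in the MEF map. Over all autosomal bins with a state, 48.7% were L in CH12, 38.1% in priB and 28.5% in the MEF map, so the flanks were below the genome as a whole. The share of L bins was higher inside than outside in 15 clusters in CH12, 15 in priB and 14 in the MEF map, and lower in 3, 2 and 1. E bins were almost confined to the outside, with 0.153% inside and 23.3% outside in CH12, 1.68% and 26.7% in priB, and 1.07% and 26.7% in the MEF map, against 23.7%, 29.7% and 32.8% over all autosomal bins. The clusters that ran against the majority in CH12 were Vmn2r37 to Vmn1r89, with 80.7% inside and 84.0% outside, and both clusters of chromosome 10.

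**Figure D4:**
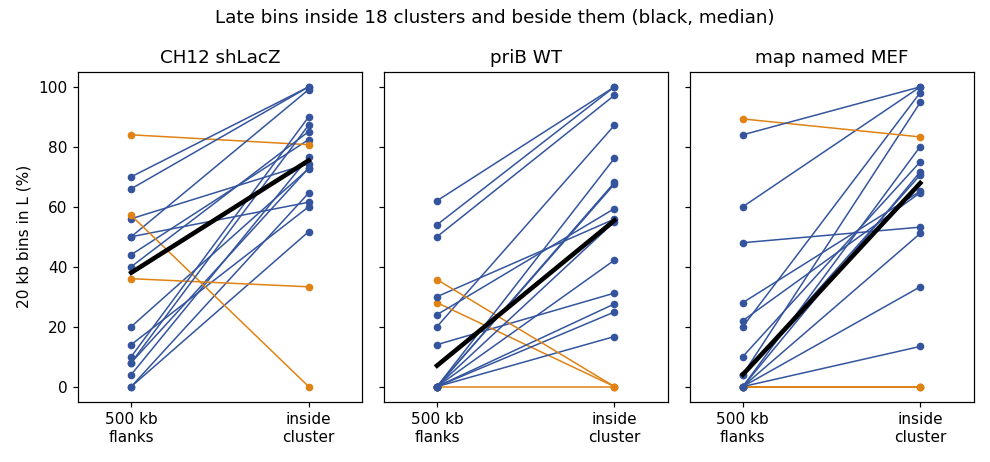
Share of 20 kb bins in L (%, y axis) within 500 kb outside each of the 18 clusters and inside it, joined by a line per cluster, for the 3 maps. Blue lines are clusters with a higher share inside, orange lines are those with an equal or lower share inside, and the black line joins the medians, which were 38.0 and 75.5% in CH12, 7.0 and 55.5% in priB, and 4.0 and 67.9% in the MEF map.

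Sequence features that the choice of genes did not use were measured in the 322 bins with a member start. GC content had a median of 38.5% in member bins and 41.4% in other autosomal bins, and was 39.2% for Vmn1r and 37.0% for Vmn2r. The share of 50-base windows that occur a single time in the genome had a median of 76.0% in member bins (interquartile range 39.5 to 89.0%) and 96.0% in other bins. It was under 50% in 94 member bins (29.2%) and in 3.25% of other bins. For 22 members no window of the bin occurred a single time, and for 46 (14.1%) under 10% of windows did. How many reads were kept in such bins is unknown from the maps.

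The share of unique windows differed between the states of member bins. In priB, the median share of such unique windows was 83.0% in L member bins and 66.0% in M member bins, and in the MEF map 83.0% and 58.5%. In other autosomal bins it was 94% in L and 96% in M in priB. Member bins that were L in both B cell maps had a median of 83.0%, those that went from L to M 69.0%, and those that were M in both 63.5%. Of the 48 Vmn1r genes in bins under 25%, 70.8% were L in CH12, 20.8% in priB and 6.25% in the MEF map. All but 3 of these 48 genes lay in the Vmn1r91 to Vmn1r183 cluster, so the shares are mostly those of 1 cluster. The 3 others were L in every map. For the 27 Vmn2r genes in bins under 25%, the L shares were 81.5% in CH12, 55.6% in priB and 70.4% in the MEF map. Of the 50 Vmn1r genes in bins of 90% or more, 86.0% were L in CH12, 46.0% in priB and 68.0% in the MEF map. Of the 29 Vmn2r genes in such bins, 82.8% were L in CH12, 79.3% in priB and 79.3% in the MEF map. In the Vmn1r91 to Vmn1r183 cluster, 135 of 209 bins had under 10% unique windows and 72 had none. Of its 31 genes in bins under 10%, 18 were L in CH12, 1 in priB and 0 in the MEF map. Of its 13 genes in bins with no unique window, 2 were L in CH12 and 0 in each other map. The part of repeated sequence in these states was not tested.

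**Figure D5:**
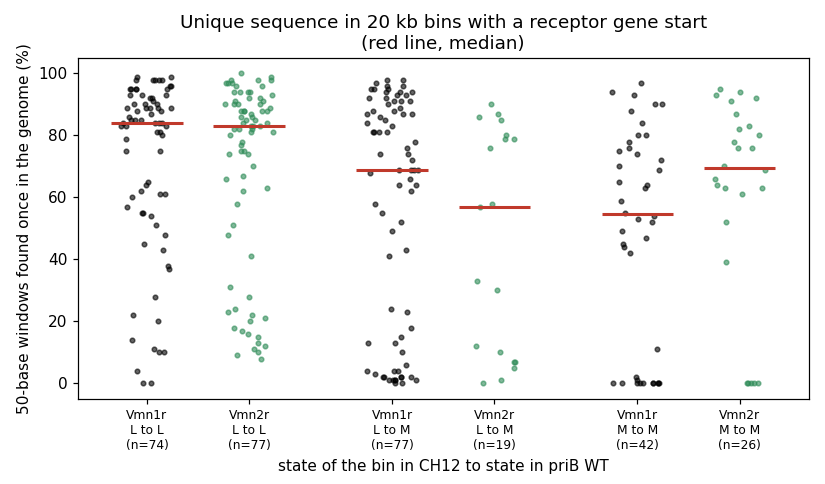
Share of 50-base windows found once in the genome (%, y axis) in 20 kb bins with a receptor gene start, for Vmn1r (black) and Vmn2r (green), by the state of the bin in CH12 and in priB. Each point is a bin and red lines are medians, which were 84.0% for Vmn1r and 83.0% for Vmn2r in bins L in both maps, and 69.0% and 57% in bins that went from L to M.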

How the data were processed

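According to the authors' methods, 50-base reads were trimmed (Trim Galore 0.6.5), aligned to mm9 with BWA 0.7.17, and kept where uniquely aligned (SAMtools 1.9). Replicates were merged, duplicates removed, and log2 early over late ratios in 20 kb windows were smoothed by loess (span 300 kb) and segmented into 3 states. These steps are not stated separately for the map named MEF. The deposited maps hold domain limits and a state number, with no ratio and no depth. The numbers are not named in the files. The pair of states with 0 contacts was taken as E and L, and E as the one denser in gene starts that are no members. Coordinates in the text are 1-based, and the NCBIM37 genome and GENCODE M1 were used. Windows of 50 bases were taken every 200 bases and counted on both strands of the whole reference.

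No test was made, since there is 1 map per condition. Named genes are the first and last of each cluster, members outside clusters, those of combinations with 5 or fewer members, those nearest to and farthest from an edge, and those in E. Genes at state changes within clusters, and the genes with printed sequences other than these, were chosen after their values were seen. The members and lists were chosen with earlier results of these data known. Functions were tested on simulated maps. Scripts ran under numba 0.67.0, pandas 2.3.3, numpy 2.4.6 and Python 3.11.15, with scipy 1.17.1 for intervals. Other groups and chromosome X were not analysed here, and some listed genes are not reported here.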

Additional observations from a re-analysis of the deposited data

How the results depend on the processing

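No paired analysis was possible because each map merges its replicates. Of 171 alternative values for 26 results, 154 stayed within the counting interval of the value given, or within 1.5 times of a count of clusters. Alternatives were the gene end or midpoint, all gene types, 1 count per bin, domains of at least 100 kb, bins with at least 50% unique windows, starts at least 100 kb from edges, other gaps between clusters, and wider bins. Leaving out genes with ps in the symbol or the Vmn1r91 to Vmn1r183 cluster was chosen after seeing the data. Away from edges, the L share in CH12 was 86.8% (Vmn1r 87.5%, Vmn2r 85.9%), the share earlier in priB than in CH12 was 17.3% (Vmn1r 28%, Vmn2r 4.41%) and the share later was 0%. There, 19.6% were earlier and 0.559% later in the MEF map than in CH12, and 2.27% earlier and 9.66% later than in priB. With at least 50% unique windows, the L share in the MEF map was 62.2% (Vmn1r 59.3%) and 19.1% of members were earlier than in CH12. Without the Vmn1r91 to Vmn1r183 cluster these were 63.5%, 59% and 17.5%. The cause of these shifts was not tested. Vmn1r genes had a lower L share than Vmn2r genes in priB under each alternative run, from 37.4 to 42.9% against 59.7 to 69.9%. In the MEF map the gap narrowed from 45.3 against 68.5% to 59.3 against 66.7% with at least 50% unique windows, and to 59 against 68.5% without that cluster.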

Other observations

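Most genes that act with the receptors were not late, as is the case for genes in general. Of 9 genes of vomeronasal signalling, 6 were E in every map, as were 45.8% of all genes: *Trpc2*, the transduction channel, *Gnai2*, the G protein of V1R neurons, *Gng8*, *Gng13*, *Plcb2* and the olfactory marker protein gene *Omp*. *Gnao1*, the G protein of V2R neurons, was M in every map, and the chloride channel genes *Ano1* and *Ano2* were M in both B cell maps and E in the MEF map. Several of these genes are also used in other tissues. Of transcription factors of vomeronasal neurons, *Meis2* was L in both B cell maps and M in the MEF map, *Bcl11b* was M, M and E, *Emx2* was M and *Lhx2* was E throughout. Of 9 H2-M genes, class I MHC genes expressed with V2Rs, H2-M1, H2-M9, H2-M11 and H2-M10.4 were L in CH12 and M in the others, H2-M10.1, H2-M10.2 and H2-M10.3 were E in priB and M in the others, and H2-M10.5 and H2-M10.6 were M. Their partner *B2m* was E in every map.

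The formyl peptide receptor genes Fpr-rs3, Fpr-rs6 and Fpr-rs7, used by other vomeronasal neurons, were L in every map, and Fpr-rs4 was L in CH12 and M in the others. They lie within the Vmn2r90 to Vmn1r237 cluster on chromosome 17. Of 35 bitter taste receptor (Tas2r) genes, 88.6% were L in CH12, 71.4% in priB and 80.0% in the MEF map. Over all genes, L held 21.3%, 12.6% and 11%. The Tas2r genes lay in 6 domains in CH12 and in priB and 7 in the MEF map. All 15 trace amine-associated receptor (Taar) genes were M in every map, but they shared 1 domain in each. Of 21 major urinary protein (Mup) genes, whose products are V2R ligands, 66.7% were L in CH12, 47.6% in priB and 14.3% in the MEF map. They lay in 3, 7 and 6 domains of these maps.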
